A study of Mus musculus with 16 samples.

Results

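Medullary and cortical thymic epithelium of the wild-type mouse were compared on 4 of the 16 oligonucleotide arrays of the series. Medullary thymic epithelial cells (mTEC) and cortical thymic epithelial cells (cTEC) had been purified by fluorescence-activated cell sorting, and total RNA was hybridised. The 2 arrays labelled WT-mTEC and the 2 labelled WT-cTEC were chosen by their titles, and all 12422 probe sets other than the manufacturer's controls entered the comparison. The 12 further arrays, also in groups of 2, held mTEC sorted for high or low surface CD80 (CD80hi and CD80lo) from Aire-knockout and from wild-type mice, and thymic dendritic cells and macrophages from wild-type mice. Both epithelial groups compared here are labelled wild type, and the labels name no treatment or time point for either. The labels give neither the age and strain of the mice, the surface markers of the mTEC and cTEC sorts, nor whether mice were pooled or the samples of a group came from separate mice. The p-values therefore measure only the spread between arrays, which may be technical, and the 2 arrays per group limit the precision.

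The thymic cortex is where developing T cells rearrange their receptor genes and are positively selected on peptides that cTEC present. In the medulla mTEC present peptides of proteins otherwise made by other organs, a property called promiscuous gene expression, and T cells that bind them strongly are deleted or diverted. Part of this expression needs the transcriptional regulator Aire, which is made in mature mTEC with high CD80.

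The sorted epithelial cells also carried transcripts of thymocytes, cTEC more than mTEC. The signals of 25 thymocyte genes summed to 1903 and 1670 on the mTEC arrays and to 5971 and 9982 on the cTEC arrays, so the groups did not overlap and cTEC array 2 carried the most. Ptprc, the pan-leukocyte gene for CD45, gave 16.4 and 51.8 on the mTEC arrays and 124 and 445 on the cTEC arrays. Genes of lymphocytes that appear below as higher in cTEC differed between the groups in the direction of these sums. Between cTEC arrays 1 and 2 not all of them rose with the sum, as Rag1 gave 405 and 903 but Rhoh 406 and 395. The part of carried-over thymocytes in these genes was not tested. The epithelial keratin Krt8 was high in mTEC, at 2033 and 2308, and in cTEC, at 1846 and 2938. It gave 59.8 and 22.0 in dendritic cells and 1213 and 172 in macrophages. In bulk RNA fewer cells of a type and less RNA per cell cannot be told apart. Replicates correlated across the 9319 probe sets tested below at a Pearson r of 0.941 for mTEC and 0.942 for cTEC. The arrays numbered 1 had lower top signals (2775 in mTEC and 2518 in cTEC) than the arrays numbered 2 (5630 in mTEC and 5461 in cTEC), although all arrays had been scaled to the same mean.

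More transcripts were higher than lower in mTEC, and the typical one of those higher was close to background in cTEC. The limma test covered 9319 probe sets. At an adjusted p of 0.05, the threshold for every call below, mTEC had 1038 (11.1%) above and 396 (4.25%) under their cTEC level. An unadjusted p under 0.05 was reached by 2369. Differences of more than 4-fold were seen in 590 of the higher and 128 of the lower probe sets. The median signal of the probe sets called higher was 91.1 in mTEC and 12.2 in cTEC, whereas that of the probe sets called lower was 60.3 in mTEC and 220 in cTEC. The typical transcript of the cTEC side was thus measured in both groups, unlike that of the mTEC side. Every called probe set differed in the same direction for the arrays numbered 1 and for those numbered 2. The calls were made on these same arrays and nearly require this, so it is no separate support. Fits without 1 array carry no term for the array number, so effects of the number and of the lost array cannot be told apart there. Leaving out mTEC array 1 or 2 gave 910 or 860 calls, and leaving out cTEC array 1 or 2 gave 936 or 946. The probe sets lower in mTEC then numbered 195 or 166 and 187 or 200. Taking 1 probe set per gene, the brightest, 818 of 6916 genes (11.8%) were higher and 318 (4.6%) lower, with a median log2 fold change of -0.03 over all genes. Fold changes are differences of mean log2(signal + 4.8), mTEC minus cTEC, ± the fit's standard error, and they understate changes of dim genes.

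**Figure D1:**
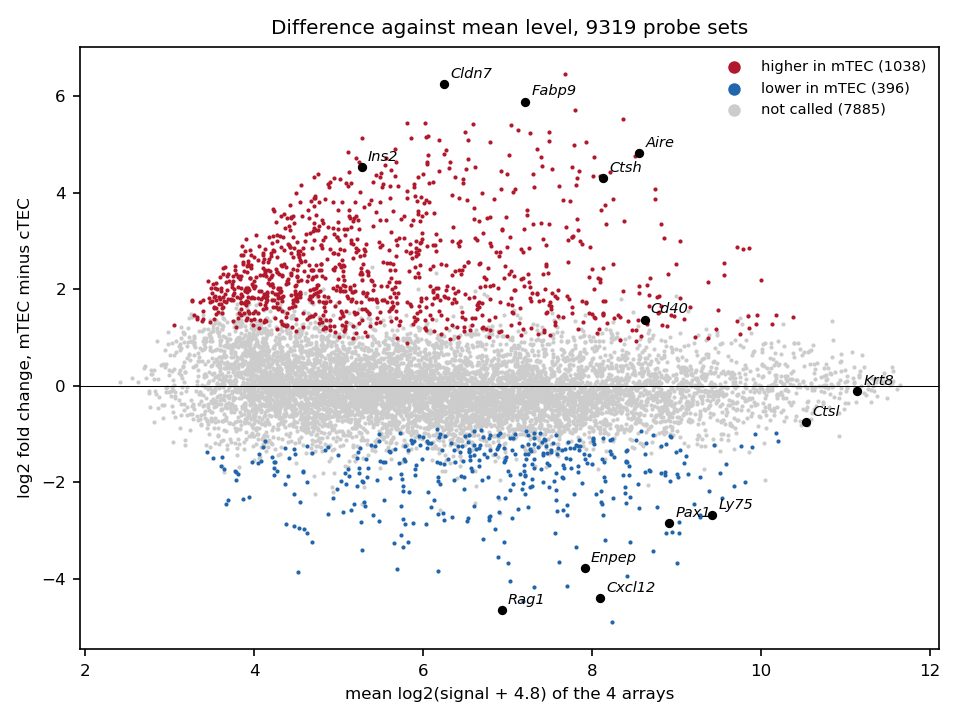
The log2 fold change (mTEC minus cTEC, vertical axis) is plotted against the mean log2(signal + 4.8) of the 4 arrays (horizontal axis) for 9319 probe sets. Each point is 1 probe set, coloured as higher in mTEC (1038), lower in mTEC (396) or not called, and the genes named are black points. The higher calls reach log2 fold changes above 6 at low and middle levels, whereas the keratin Krt8 and the cathepsin Ctsl lie at -0.10 and -0.76 at high levels.

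The gene with the largest difference was Cldn7, a claudin of epithelial tight junctions. Cldn7 gave signals of 1143 and 378 in mTEC and of 4.2 and 3.6 in cTEC, a log2 fold change of 6.25 ± 0.45 (limma adjusted p = 2.31e-06). It was thus bright on both mTEC arrays and at background on both cTEC arrays. Fabp9, which binds fatty acids in male germ cells, gave 1527 and 834 in mTEC and 6.9 and 26.7 in cTEC (5.88 ± 0.53). Reg3g, a secreted antimicrobial lectin of gut and pancreas, gave 1576 and 3154 in mTEC and 25.3 and 73.0 in cTEC (5.53 ± 0.69). Krt20, a keratin of the intestinal lining outside the 12 highest genes but among the most significant, gave 1334 and 813 in mTEC and 24.4 and 28.0 in cTEC (5.08 ± 0.35). None of these groups overlapped.

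The others of the 12 highest genes were a mixture of secreted, enzyme and cytoskeletal genes of various organs. They were the acute-phase apolipoprotein Saa3 (5.71 ± 0.77), the actin-binding villin relative Avil (5.44 ± 0.48), the kallikreins Egfbp2 (5.44 ± 0.45) and Klk1 (5.17 ± 0.54), and the intestinal apolipoprotein Apoa4 (5.42 ± 0.55). Further ones were the chemokine Ccl9 (5.39 ± 0.33), Nrep, a neuronal protein gene (5.25 ± 0.54), Clca1, a secreted protein of intestinal goblet cells (5.16 ± 0.51), and the matrix metalloprotease Mmp7 (5.13 ± 0.49). The probe sets of Cldn7, Fabp9, Egfbp2, Klk1 and Clca1 share probes with similar sequences, so those signals may include relatives, also for Cldn7, the leading gene. The same holds below for Bmp4, Cd80, Cd86, Blnk, Wnt10b, Igf2, Ins2, Alas2, Gadd45b, Ifi204, Klk1b22, Chgb and Zp2. All 12 genes kept their call without any 1 of the 4 arrays.

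**Figure D2:**
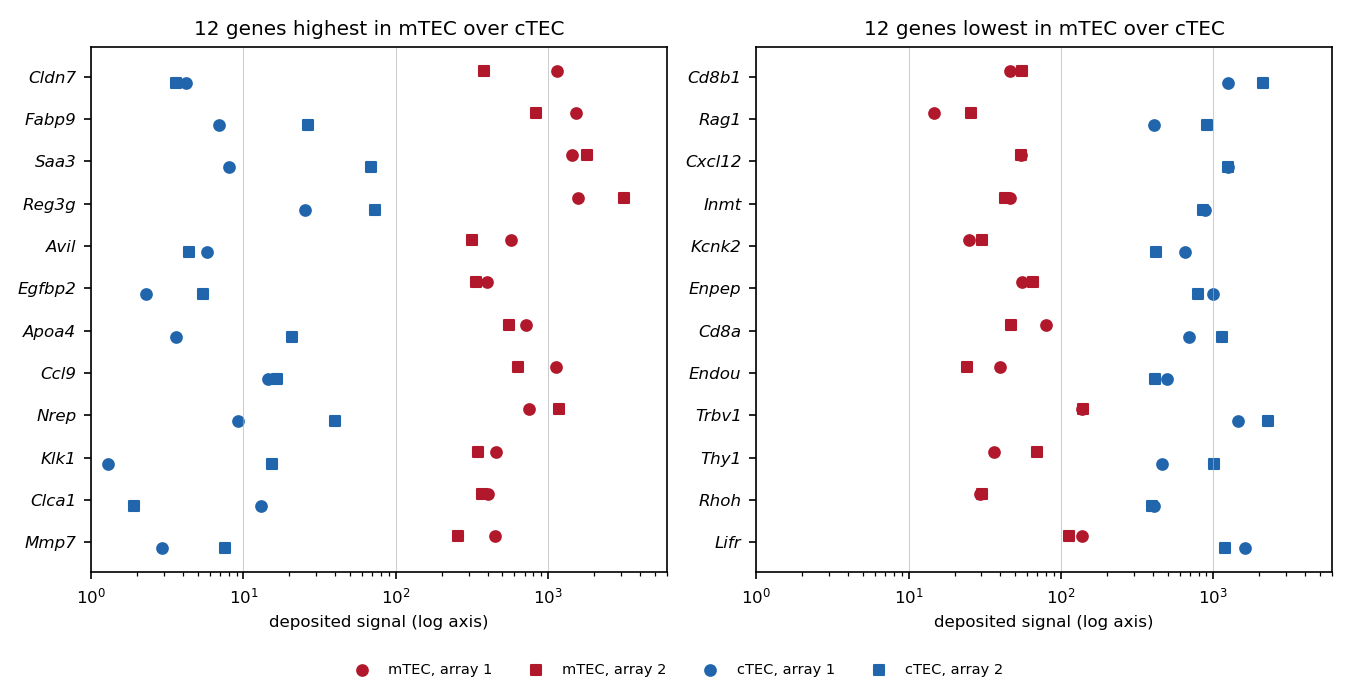
Deposited signals (horizontal log axis) are shown per array for the 12 genes highest (left) and the 12 lowest (right) in mTEC over cTEC. Red points are mTEC and blue points cTEC, with circles for arrays numbered 1 and squares for arrays numbered 2. No gene overlaps between the groups, and the thymocyte genes Rag1, Cd8a and Thy1 are higher on cTEC array 2 than on cTEC array 1, whereas Cxcl12 and Inmt are level.

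Among the genes higher in cTEC, Cxcl12 was the epithelial gene with the largest difference. It encodes the chemokine that draws CXCR4-bearing thymocyte precursors into the cortex. Cxcl12 gave 54.5 and 54.6 in mTEC and 1245 and 1249 in cTEC, a log2 fold change of -4.40 ± 0.59 (limma adjusted p = 0.000129). Inmt, a methyltransferase of indole amines, gave 46.3 and 42.7 in mTEC and 887 and 857 in cTEC (-4.15 ± 0.56). Enpep, the aminopeptidase A that an antibody against cortical epithelium recognises, gave 55.4 and 65.5 in mTEC and 999 and 790 in cTEC (-3.78 ± 0.59). The replicate arrays of each group lay close together for these genes, in both mTEC and cTEC. The potassium channel gene Kcnk2 (-4.03 ± 0.57) and Lifr, the receptor for leukaemia inhibitory factor (-3.42 ± 0.55), were also among the 12 lowest. So was the endoribonuclease gene Endou (-3.67 ± 0.69). Endou gave 20.5 and 67.5 on the wild-type CD80lo arrays 1 and 2, where the thymocyte sums were 876 and 2056. The part of thymocytes in its difference was not tested.

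The rest of the 12 lowest genes are known from T cells, and 4 of them belong to the thymocyte list. Rag1, a recombinase of antigen receptor genes, gave 14.7 and 25.7 in mTEC and 405 and 903 in cTEC (-4.64 ± 0.77). The coreceptor genes Cd8b1 (-4.88 ± 0.57) and Cd8a (-3.76 ± 0.67), the receptor segment Trbv1 (-3.66 ± 0.62), the surface glycoprotein Thy1 (-3.64 ± 0.71) and the small GTPase Rhoh (-3.55 ± 0.95) were the others. Cd8b1 and Trbv1 rest on probe sets that share probes with similar sequences. Rhoh lost its call without any 1 of the 4 arrays (adjusted p of 0.0888 to 0.0945), which the others kept. Without the thymocyte list and the probe sets that differed with thymocyte signal between the CD80lo arrays, 355 of the 396 probe sets called lower in mTEC were left, and how many of these are expressed in thymocytes was not tested.

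Promoters are shown for 3 genes high in mTEC and 2 high in cTEC, as examples of a difference in sequence make-up. The 3 mTEC genes were chosen because they hold the letters TATAAA shortly before the start. Each runs from 250 bases before to 50 bases after the first listed transcription start, from RefSeq on the build GRCm38.p6, 5′ to 3′ on the strand of the gene. In the mTEC genes capitals mark the TATA box letters TATAAA, or TTTATA where they lie on the other strand. In the cTEC genes capitals mark CG dinucleotides. Reg3g lies on the minus strand at chr6:78468825-78469124, Mmp7 on the plus strand at chr9:7691840-7692139 and Krt20 on the minus strand at chr11:99438104-99438403. Cxcl12 lies on the plus strand at chr6:117168285-117168584 and Ly75 on the minus strand at chr2:60383224-60383523.
Reg3g: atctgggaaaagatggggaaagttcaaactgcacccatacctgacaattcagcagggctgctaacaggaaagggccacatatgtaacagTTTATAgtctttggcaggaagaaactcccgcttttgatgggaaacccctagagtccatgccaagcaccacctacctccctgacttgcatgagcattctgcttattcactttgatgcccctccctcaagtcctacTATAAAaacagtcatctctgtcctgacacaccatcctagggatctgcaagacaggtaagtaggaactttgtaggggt
Mmp7: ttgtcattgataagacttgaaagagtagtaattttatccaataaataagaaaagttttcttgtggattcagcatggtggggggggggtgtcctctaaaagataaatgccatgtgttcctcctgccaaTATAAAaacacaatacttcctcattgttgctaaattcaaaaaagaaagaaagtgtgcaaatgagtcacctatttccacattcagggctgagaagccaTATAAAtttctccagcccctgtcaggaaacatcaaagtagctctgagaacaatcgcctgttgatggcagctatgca
Krt20: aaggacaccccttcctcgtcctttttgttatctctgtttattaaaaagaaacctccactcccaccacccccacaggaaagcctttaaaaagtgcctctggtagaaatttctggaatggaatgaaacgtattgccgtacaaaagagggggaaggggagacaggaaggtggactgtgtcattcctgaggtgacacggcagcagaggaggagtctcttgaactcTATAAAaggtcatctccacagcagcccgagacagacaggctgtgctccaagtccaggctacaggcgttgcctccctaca
Cxcl12: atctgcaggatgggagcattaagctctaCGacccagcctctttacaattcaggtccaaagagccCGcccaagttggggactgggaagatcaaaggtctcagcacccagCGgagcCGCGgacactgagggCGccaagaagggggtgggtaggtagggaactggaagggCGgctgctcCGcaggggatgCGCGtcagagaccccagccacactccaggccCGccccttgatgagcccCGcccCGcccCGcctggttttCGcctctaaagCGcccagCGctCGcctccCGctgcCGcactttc
Ly75: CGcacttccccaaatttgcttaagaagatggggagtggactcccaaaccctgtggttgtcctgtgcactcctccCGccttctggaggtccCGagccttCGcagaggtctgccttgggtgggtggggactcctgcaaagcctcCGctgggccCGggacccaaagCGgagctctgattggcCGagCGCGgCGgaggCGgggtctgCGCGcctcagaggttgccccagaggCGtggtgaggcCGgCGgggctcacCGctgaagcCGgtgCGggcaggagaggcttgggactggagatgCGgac

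The printed mTEC promoters, chosen for holding TATAAA there, have it 26 to 29 bases before the start. They hold only 1 to 6 CG dinucleotides, whereas those of Cxcl12 and Ly75 hold 20 and 21 CG dinucleotides and no TATAAA. Most genes higher in mTEC lack TATAAA at that place, so the printed examples are not typical of them. Among genes with a promoter in the RefSeq table, TATAAA on either strand occurred in 21.6% of 625 genes higher in mTEC and in 4.98% of 261 genes lower in mTEC. It occurred in 9.73% of the 5551 tested genes and in 14.2% of all 27025 promoters. Lying 20 to 40 bases before the start on the gene's strand, it occurred in 9.6% of the genes higher and 0.766% of the genes lower in mTEC, with 2.85% of the tested genes and 2.22% of all promoters. The median number of CG dinucleotides was 7 for genes higher and 20 for genes lower in mTEC, against 20 for the tested genes and 7 for all promoters. The promoters of mTEC genes were thus poorer in CG than those of the genes the arrays detected, and near those of the genome. These shares describe letters in 300-base windows and carry no test.

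Most known genes of the medulla were higher in mTEC. Of 25 medullary genes 23 were on the array and 20 were tested, and 15 of these were higher, 1 was lower and 4 were not called, with a median log2 fold change of 2.78 beside -0.03 for all genes. Among all tested genes 11.8% were higher. Aire gave 1386 and 2887 in mTEC and 37.8 and 113 in cTEC (4.82 ± 0.51). Fezf2, a transcription factor that drives another part of promiscuous expression, gave 1360 and 1106 in mTEC and 36.4 and 83.9 in cTEC (4.35 ± 0.61). Spib, an Ets factor that restrains mTEC maturation, gave 671 and 1115 in mTEC and 14.5 and 50 in cTEC (4.74 ± 0.54). Aire, Fezf2 and Spib thus lay well above every cTEC array on both mTEC arrays.

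The other medullary genes included Hdc, the histamine-synthesising enzyme (4.86 ± 0.64), and Tnfrsf11b, the decoy receptor of the cytokine RANKL (4.28 ± 0.45). Cldn3 (3.89 ± 0.40) and Cldn4 (3.02 ± 0.58) are claudins used to recognise medullary precursors. The chemokines Ccl22 (3.41 ± 0.70) and Ccl17 (3.16 ± 0.51) attract T cells with the receptor CCR4, and the protease Ctss (2.55 ± 0.40) trims the invariant chain of MHC class II. The adhesion gene Epcam (2.05 ± 0.48), the NF-kB subunit Nfkb2 (1.81 ± 0.49) and the costimulatory genes Cd80 (1.38 ± 0.37) and Cd40 (1.37 ± 0.31) differed less. Each of these lost its call without some array, and so did Ccl22. Epcam did so without mTEC array 1 or cTEC array 2 (adjusted p = 0.0713 and 0.0901), Cd40 without mTEC array 2 or cTEC array 2 (0.0585 and 0.0621) and Ccl22 without cTEC array 1 (0.0634). Cd80 lost it without mTEC array 1, mTEC array 2 or cTEC array 1 (0.144, 0.0562 and 0.191), and Nfkb2 without any 1 of the 4 arrays (0.0572 to 0.157).

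Ltbr, the lymphotoxin beta receptor, was the medullary gene called lower in mTEC, at 46.9 and 54.6 in mTEC and 145 and 110 in cTEC (-1.24 ± 0.38). It also lost that call without any 1 of the 4 arrays (adjusted p of 0.078 to 0.222). The epithelial stem cell factor Trp63 gave 149 and 160 in mTEC and 418 and 268 in cTEC, a log2 fold change of -1.10 ± 0.47 that was not called (limma adjusted p = 0.156). The NF-kB subunit Relb (1.25 ± 0.56) was not called either (limma adjusted p = 0.18), although it was with the replicate number as a block (adjusted p = 0.0359). The adaptor Traf6 (0.82 ± 0.47) and Tnfrsf11a, which encodes the receptor RANK (0.40 ± 0.39), were not called. The basal keratins Krt5 and Krt14 and the cornified envelope gene Ivl were too dim to be tested, since none passed a signal of 17.3 on 2 of the 16 arrays, Krt5 at 8.1 and 16.3 in mTEC and 8.0 and 3.4 in cTEC. The chemokines Ccl21a and Ccl19 were not analysed here.

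Known genes of the cortex were lower in mTEC in part. Of 19 cortical genes 14 were on the array and tested, and 6 were lower in mTEC while 8 were not called, beside 4.6% of all tested genes, with a median log2 fold change of -1.39. Besides Cxcl12 and Enpep, these were Pax1, Cd83, Ly75 and Ackr4. Pax1, a transcription factor of the thymic rudiment, gave 191 and 162 in mTEC and 1350 and 1222 in cTEC (-2.83 ± 0.46). Cd83, a surface protein that stabilises MHC class II on cTEC, gave 288 and 201 in mTEC and 1510 and 1596 in cTEC (-2.67 ± 0.35). Ly75, the endocytic receptor DEC-205 of cortical epithelium and dendritic cells, gave 178 and 396 in mTEC and 1456 and 2057 in cTEC (-2.68 ± 0.59).

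Cd83 and Ly75 were not restricted to epithelium in this series, and their signals on the dendritic cell arrays were 2137 and 1575 for Cd83 and 154 and 754 for Ly75. Ly75 lost its call without mTEC array 1 (adjusted p = 0.0799) or cTEC array 2 (adjusted p = 0.0545). Ackr4, an atypical chemokine receptor that scavenges CCL19, CCL21 and CCL25, gave 37.6 and 36.7 in mTEC and 294 and 81.9 in cTEC (-1.94 ± 0.60). The cTEC arrays differed several-fold for Ackr4, and its call was lost without mTEC array 1, mTEC array 2 or cTEC array 1 (adjusted p = 0.146, 0.164 and 0.398). The functional genes of the cortex that were not called included the chemokine Ccl25, at 1589 and 1141 in mTEC and 2083 and 3715 in cTEC (-1.04 ± 0.71). Ctsl, the protease of class II antigen processing in cTEC, gave 1617 and 798 in mTEC and 1249 and 2960 in cTEC (-0.76 ± 0.49), so that its groups overlapped. The stem cell factor Kitl (-1.61 ± 0.62), the keratins Krt18 (-1.17 ± 0.81) and Krt8 (-0.10 ± 0.67), the cytokine Il7 (-0.80 ± 0.56), the master regulator Foxn1 (-0.44 ± 0.36) and the growth factor Bmp4 (-0.34 ± 0.36) were not called. Foxn1 was dim in both groups, at 18.7 and 36.9 in mTEC and 42.2 and 33.7 in cTEC. The thymoproteasome subunit Psmb11, the serine protease Prss16, the Notch ligand Dll4 and Tbata were among those not analysed here.

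Most tested keratins were higher in mTEC, whereas most transcription factor and junction genes were not called. Of all tested genes 11.8% were higher and 4.6% lower. Of 18 tested thymic epithelial transcription factors 6 were higher and 1, Pax1, was lower in mTEC, with a median log2 fold change of 0.08. Foxa1, a pioneer factor of endodermal organs, gave 136 and 232 in mTEC and 0.6 and 13.0 in cTEC (4.22 ± 0.51), and the intestinal homeobox factor Cdx1 was higher by 3.48 ± 0.50. Of 13 tested keratins 8 were higher and 0 lower, with a median of 1.56 and 0 lower at an unadjusted limma p under 0.05 as well. They included Krt19 (3.51 ± 0.45) of simple epithelia, Krt10 (3.82 ± 0.54) of differentiated skin and Krt16 (3.22 ± 0.45) of stressed skin. Of 23 junction and adhesion genes 9 were higher and 2 were lower, with a median of 0.50. Gjb2, the connexin of gap junctions, gave 1236 and 874 in mTEC and 31.9 and 50.8 in cTEC (4.53 ± 0.33). The 2 junction genes lower in mTEC, named after their values were seen, were the laminin chain Lamb3 (-2.82) and the desmosomal plaque gene Dsp (-0.98). Without mTEC array 2 the keratins called higher numbered 5, and without mTEC array 1 or 2 or cTEC array 2 the junction genes called higher numbered 5, 6 and 6. The junction genes called lower numbered 0 without mTEC array 2 or cTEC array 1 and 1 without mTEC array 1 or cTEC array 2.

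Genes of other organs were often higher in mTEC. Lists of 10 organ systems held 285 tested memberships, of which 148 were higher and 2 lower. The share of tested members called higher ran from 30% in testis and germ cells to 87% in the mammary, salivary and lacrimal gland. Among all tested genes it was 11.8%. A gene silent in cTEC could be tested through mTEC arrays alone, so these shares depend on the filter. Of the members on the array, tested or not, 6 of 40 testis and germ cell genes were higher. For the mammary, salivary and lacrimal list these were 20 of 30. The 2 lower memberships lay in the muscle and nervous system lists. Of 31 intestine and stomach genes 23 were higher (median log2 fold change 2.29), with Vil1, the microvillus protein villin, at 180 and 180 in mTEC and 0.4 and 3.3 in cTEC (4.83 ± 0.36) and the trefoil peptide Tff2 at 4.02 ± 0.34. Of 23 mammary, salivary and lacrimal genes 20 were higher (median 3.50), among them the caseins Csn1s1 (4.33 ± 0.39) and Csn1s2a (3.83 ± 0.39) and the kallikrein Klk1b22 (4.08 ± 0.34). In that list 8 tested members rest on probe sets with shared probes, so near-identical kallikreins can repeat a signal.

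The pancreas list had 15 of 25 genes higher (median 1.64). Its insulin gene Ins2 gave 143 and 229 in mTEC and 1.6 and 5.3 in cTEC (4.53 ± 0.50), and the granule proteins Iapp and Chgb were higher by 3.51 ± 0.37 and 3.95 ± 0.42. The liver and plasma protein list had 20 of 38 higher (median 1.53), including the apolipoprotein Apoa1 (4.72 ± 0.38), the fatty-acid-binding protein Fabp1 (4.43 ± 0.53) and the retinol carrier Rbp4 (3.12 ± 0.39). The skin list had 15 of 27 higher (median 1.50). Its cornified envelope precursor Sprr1a gave 1165 and 1515 in mTEC and 33.8 and 60.6 in cTEC (4.73 ± 0.39), and the kallikrein Klk6 was higher by 3.38 ± 0.38. Of the genes named here, Sprr1a alone exceeded a signal of 17.3 in cTEC, the level that a probe set had to pass on 2 arrays to be tested.

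Excitable tissues and glands followed with smaller shares. The muscle list had 19 of 49 genes higher and 1 lower (median 0.97), with the fast myosin Myh4 at 3.80 ± 0.39 and the skeletal actin Acta1 at 2.89 ± 0.32. The gene lower was Pgam2, a muscle glycolytic enzyme (-1.76), which lost its call without mTEC array 1 or cTEC array 2. The nervous system and eye list had 14 of 34 higher and 1 lower (median 1.16), with the synaptic vesicle protein Syt1 at 4.04 ± 0.38, the lens crystallin Cryaa at 2.94 ± 0.40 and the neurofilament Nefm as the gene lower (-2.93), which lost its call without mTEC array 1 or cTEC array 1. The endocrine list had 11 of 26 higher (median 1.09), including the gut hormone Gip (3.47 ± 0.35) and the peptide precursor Pomc (2.89 ± 0.36). The lung and kidney list had 5 of 12 higher (median 1.24), with uromodulin, Umod, at 2.84 ± 0.43 and the phosphate transporter Slc34a1, named after its value was seen, at 1.24. The testis and germ cell list had 6 of 20 higher (median 0.55), with the sperm lactate dehydrogenase Ldhc at 2.31 ± 0.37 and the egg coat gene Zp2 at 2.40 ± 0.34. Without mTEC array 2 the endocrine genes called higher numbered 7, and without mTEC array 1 or cTEC array 1 the lung and kidney genes numbered 3 each time. Pgam2, like Nefm, was chosen for naming after its value was seen. Of 22 earlier reported Aire targets 20 were higher (median 3.82), a list that can include work on these samples and is not independent evidence.

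**Figure D3:**
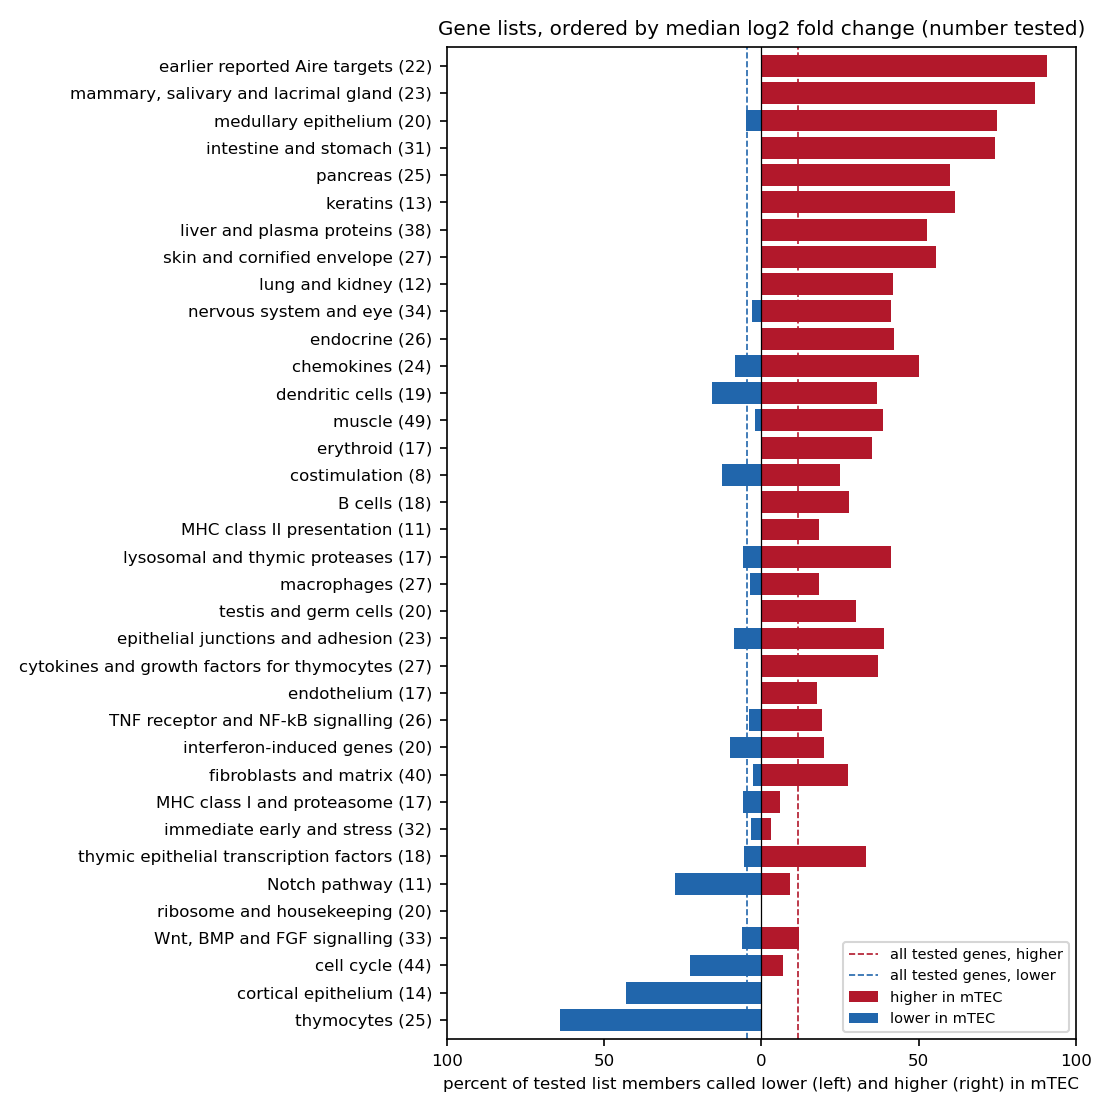
Bars give the percent of tested members of each of 36 gene lists called higher (right, red) and lower (left, blue) in mTEC, with the number tested in brackets and the lists ordered by median log2 fold change. Dashed lines mark all tested genes, 11.8% higher and 4.6% lower. The organ lists lie to the right, and the thymocyte, cortical epithelium and cell cycle lists to the left.

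Many chemokine and cytokine genes were higher in mTEC (50% and 37% of those tested), beside 11.8% of all tested genes. Few were lower (8.33% and 0%), beside 4.6% of all tested genes. Of 24 tested chemokine and chemokine receptor genes 12 were higher and 2, Cxcl12 and Ackr4, lower (median log2 fold change 1.06). The neutrophil chemokine Cxcl2 gave 845 and 881 in mTEC and 12.9 and 80.4 in cTEC (4.48 ± 0.53). Of 27 cytokine and growth factor genes 10 were higher and 0 lower (median 0.50), with 1 lower at an unadjusted limma p under 0.05. Tnf gave 324 and 230 in mTEC and 2.9 and 6.5 in cTEC (4.90 ± 0.41). The type 2 cytokine Il13 (4.12 ± 0.45), the growth factor Igf2 (3.89 ± 0.43) and Il12a, a subunit of interleukin 12 (3.65 ± 0.46), were among the others. The chemokine genes called higher numbered 6 without cTEC array 1, 7 without mTEC array 2 and 8 without mTEC array 1, and the cytokine genes numbered 6 without mTEC array 2.

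Most tested genes of the Notch pathway were not called between mTEC and cTEC. Of 11 Notch genes 1 was higher (9.09%) and 3 were lower (27.3%), with a median log2 fold change of -0.03. The shares of all tested genes were 11.8% higher and 4.6% lower. The target Hey1 gave 65.5 and 56.6 in mTEC and 622 and 459 in cTEC (-3.04 ± 0.38). The ligand Jag2 gave 23.5 and 25.2 in mTEC and 264 and 142 in cTEC (-2.77 ± 0.57), and Rfng, an enzyme that modifies the receptor, had a log2 fold change of -1.41 ± 0.43. The receptor Notch1 gave 553 and 639 in mTEC and 253 and 206 in cTEC (1.36 ± 0.30). Thymocytes also express Notch1, the thymocyte markers were lower in mTEC, and the part of thymocytes in the Notch1 signals was not tested. Jag2 lost its call without cTEC array 1 (adjusted p = 0.0503), Notch1 without mTEC array 2 or cTEC array 2 (0.0578 and 0.0573), and Rfng without any 1 of the 4 arrays (0.108 to 0.187).

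Of 26 genes of TNF receptors and NF-kB 5 were higher (19.2%) and 1, Ltbr, was lower (3.85%), with a median of 0.37. The shares of all tested genes were 11.8% higher and 4.6% lower. The 5 were Tnf, Tnfrsf11b, Traf1, Cd40 and Nfkb2, with the adaptor Traf1 at 3.42 ± 0.73, a call lost without cTEC array 1 (adjusted p = 0.075). The count became 3 without mTEC array 2 or cTEC array 2. Of 33 Wnt, BMP and FGF genes 4 were higher and 2 lower (median -0.09), shares close to those of all genes. The Wnt ligands Wnt10b (2.31 ± 0.36) and Wnt11 (2.58 ± 0.46) were higher and dim in mTEC, at 28.1 and 23.8 for Wnt10b. The transcriptional inhibitor Id1 was higher (1.74 ± 0.38), and the epithelial FGF receptor Fgfr2 gave 158 and 236 in mTEC and 495 and 687 in cTEC (-1.57 ± 0.35). Named after their values were seen, the activin inhibitor Fst was higher (1.39) and the Wnt inhibitor Sfrp1 lower (-1.29). Without mTEC array 1 or cTEC array 2, Id1 and Fgfr2 both lost their calls (adjusted p = 0.0507 and 0.0716 for Id1, and 0.0799 and 0.0704 for Fgfr2), the higher genes numbered 2 and no gene was called lower, and without mTEC array 2 or cTEC array 1 the lower genes numbered 1.

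Among genes of antigen presentation, several lysosomal proteases were higher in mTEC, and few MHC genes were called. Of all tested genes 11.8% were higher and 4.6% lower, beside 41.2% and 5.88% of the proteases and 18.2% and 0% of the class II genes. Of 17 lysosomal and thymic proteases 7 were higher and 1, Enpep, was lower (median log2 fold change 0.64). Ctsh, a lysosomal aminopeptidase, gave 1150 and 1346 in mTEC and 36.2 and 92.3 in cTEC (4.31 ± 0.43), and the carboxypeptidase Ctsz was higher by 3.34 ± 0.36. Of 11 MHC class II presentation genes 2 were higher, the lysosomal thiol reductase Ifi30 (2.14 ± 0.36) and H2-Ob, a chain of the peptide-loading inhibitor H2-O (2.06 ± 0.50). Its partner chain H2-Oa gave 906 and 1009 in mTEC and 286 and 363 in cTEC, and was not called (limma adjusted p = 0.0799), although it was with the replicate number as a block (adjusted p = 0.038). Of 8 costimulation genes Cd40 and Cd80 were higher and Cd83 was lower, while Cd86 was not called (1.28 ± 0.48).

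Of 17 MHC class I and proteasome genes 1 was higher and 1 lower (5.88% each, median 0.09), beside 11.8% and 4.6% of all tested genes. The proteasome activator Psme1 gave 848 and 692 in mTEC and 137 and 231 in cTEC (2.08 ± 0.45). Psmb9, a subunit of the immunoproteasome, gave 665 and 555 in mTEC and 1457 and 1464 in cTEC (-1.26 ± 0.34). Both calls depended on single arrays, Psme1 losing it without mTEC array 1 (adjusted p = 0.0515) or cTEC array 1 (0.0687), and Psmb9 without any 1 of the 4 (0.0643 to 0.145). H2-Ob lost its call without mTEC array 1 (0.0855) or cTEC array 1 (0.109). Of 20 interferon-induced genes 4 were higher and 2 lower (median 0.31), among them the antiviral GTPase Mx1 (2.79 ± 0.37) and the sensor Ifi204 (2.39 ± 0.41) higher and the GTPase Gbp2 lower (-1.61 ± 0.29). The other genes, named after their values were seen except Irf7, were the regulator Irf7 (1.83 ± 0.33) and the protease Usp18 (1.07) on the higher side and the exonuclease Isg20 (-3.19) on the lower side. Without mTEC array 1 the lower genes numbered 1.

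Several genes of DNA replication and division were lower in mTEC, and the few higher were a cyclin and a pair of kinase inhibitor genes. Of 44 genes 3 were higher (6.82%) and 10 lower (22.7%) in mTEC, beside 11.8% and 4.6% of all tested genes. The median log2 fold change of the list was -0.75. Cdkn1c, an inhibitor of cyclin-dependent kinases, gave 894 and 875 in mTEC and 25.2 and 24.7 in cTEC (4.90 ± 0.30), a difference far beyond the spread within either group. The cyclin Ccnd2 was higher (2.69 ± 0.37), as was the inhibitor Cdkn1a (1.75), which was named after its value was seen. The replication licensing gene Cdc6 gave 45.7 and 41.4 in mTEC and 260 and 327 in cTEC (-2.62 ± 0.46), and the topoisomerase Top2a gave 37.2 and 71.2 in mTEC and 145 and 284 in cTEC (-1.88 ± 0.45). The 10 genes lower became 3 without mTEC array 1, 5 without mTEC array 2 and 1 without cTEC array 2, which of the 4 arrays had the highest thymocyte sum. Top2a lost its call without mTEC array 1 (adjusted p = 0.12) or cTEC array 2 (adjusted p = 0.122). The part of dividing thymocytes in these differences was not tested.

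None of 20 ribosome and housekeeping genes was called with limma (median -0.06), and 0 had an unadjusted p under 0.05. Of 32 immediate early and stress genes 1 was higher, the growth arrest gene Gadd45b (1.81 ± 0.45), and 1 was lower, Ier3, an early response gene (-1.79 ± 0.54), shares below those of all genes. Gadd45b lost its call without mTEC array 1, mTEC array 2 or cTEC array 2, and Ier3 without mTEC array 2 or cTEC array 1 (adjusted p up to 0.147 for Gadd45b and up to 0.286 for Ier3).

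Markers of cells other than epithelium were examined on the same arrays, where 11.8% of all tested genes were higher in mTEC and 4.6% lower. Of 25 thymocyte genes 16 were lower and 0 higher in mTEC (median log2 fold change -2.40), with 0 higher at an unadjusted limma p under 0.05. Rag2, the partner of Rag1, gave 2.6 and 1.7 in mTEC and 25.3 and 33.6 in cTEC (-2.29 ± 0.38). Without cTEC array 2, 9 thymocyte genes were called lower. Of 19 dendritic cell genes 7 were higher and 3 lower (median 1.04), and their signals summed to 8310 and 9652 in mTEC and 5798 and 6951 in cTEC, beside 21960 and 26210 in dendritic cells. Those higher included Irf4, a transcription factor of dendritic cells and lymphocytes (3.63 ± 0.41), and the actin-bundling Fscn1 (2.32 ± 0.45). Those lower were Cd83, Ptprc (-2.80) and Coro1a, an actin regulator of leukocytes (-2.43, named after its value was seen), and their number became 1 without mTEC array 1 or cTEC array 2. The defining gene Itgax, the integrin CD11c, was low in both epithelia, at 39.1 and 54.4 in mTEC and 23.9 and 27.3 in cTEC, against 1188 and 1296 in dendritic cells. Without cTEC array 1, 3 dendritic cell genes were called higher.

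Of 27 macrophage genes 5 were higher and 1 lower (median 0.64), including the lysozyme Lyz2 (3.54 ± 0.45), the scavenger receptor Marco (2.27 ± 0.41), the galectin Lgals3 (a call lost without mTEC array 1, adjusted p = 0.0612, or cTEC array 1, 0.0908), Ctss and, named after its value was seen, the mannose receptor Mrc1 (2.68). The gene lower was Hpgd, which breaks down prostaglandins (-2.53, also chosen after its value was seen), and it was not called without any 1 of the 4 arrays. The macrophage genes were thus higher in 18.5% and lower in 3.7%, beside 11.8% and 4.6% of all tested genes. Their sums were 6601 and 6637 in mTEC and 5431 and 5773 in cTEC, beside 25000 and 45710 in macrophages. Csf1r, the receptor that macrophages need, gave 59.7 and 91.9 in mTEC and 34.6 and 40.2 in cTEC, against 1163 and 2325 in macrophages. Of 18 B cell genes 5 were higher (27.8%, median 0.77). They were Cd72, Fcer2a, Blk, the receptor chain Cd79b (1.84, named after its value was seen) and the adaptor Blnk at 709 and 944 in mTEC and 14.4 and 59.3 in cTEC (4.55 ± 0.47). The B cell receptor chain Cd79a was near background, at 5.2 and 30.6 in mTEC and 5.6 and 16.9 in cTEC, and Ms4a1, the gene for CD20, gave 44.0 and 40.9 in mTEC and 33.5 and 36.3 in cTEC. Of the B cell receptor chains and CD20, Cd79b was thus called higher in mTEC, at 156 and 125 in mTEC and 39.0 and 32.3 in cTEC, while Cd79a and Ms4a1 were not called. The part of B cells in these differences was not tested. Without cTEC array 1 the macrophage genes called higher numbered 3.

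Of 40 fibroblast and matrix genes 11 were higher (27.5%) and 1, Thy1, was lower (2.5%), with a median of 0.25. The shares of all tested genes were 11.8% higher and 4.6% lower, and those higher among endothelial and erythroid genes were 17.6% and 35.3%. The collagen Col6a3 (2.87 ± 0.40) and elastin, Eln (2.83 ± 0.41), were higher, as was the fibroblast collagen Col1a1, at 39.3 and 63.8 in mTEC and 5.4 and 11.7 in cTEC (2.08 ± 0.48). The fibroblast receptor Pdgfra gave 15.1 and 10.2 in mTEC and 23.1 and 20.7 in cTEC, and like the matrix proteoglycans Dcn (0.07 ± 0.49) and Lum (0.57 ± 0.51) it was not called. Of 17 endothelial genes 3 were higher (median 0.47), among them Vwf, the clotting protein von Willebrand factor, at 198 and 135 in mTEC and 2.4 and 15.2 in cTEC (3.81 ± 0.56). The endothelial adhesion gene Pecam1 gave 38.8 and 44.8 in mTEC and 35.0 and 47.7 in cTEC. Of 17 erythroid genes 6 were higher (median 0.90), among them the haem enzyme Alas2 (3.08 ± 0.52) and the carbonic anhydrase Car2 (2.32 ± 0.32), while the globin Hba-a1 gave 40.4 and 34.7 in mTEC and 17.2 and 18.2 in cTEC and was not called. The fibroblast genes called higher numbered 7, 3, 5 and 6 without mTEC array 1, mTEC array 2, cTEC array 1 and cTEC array 2 in turn, and the erythroid genes numbered 3 without mTEC array 2, 4 without cTEC array 1 and 3 without cTEC array 2. The part of other cells in these differences was not tested beyond these values.

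**Figure D4:**
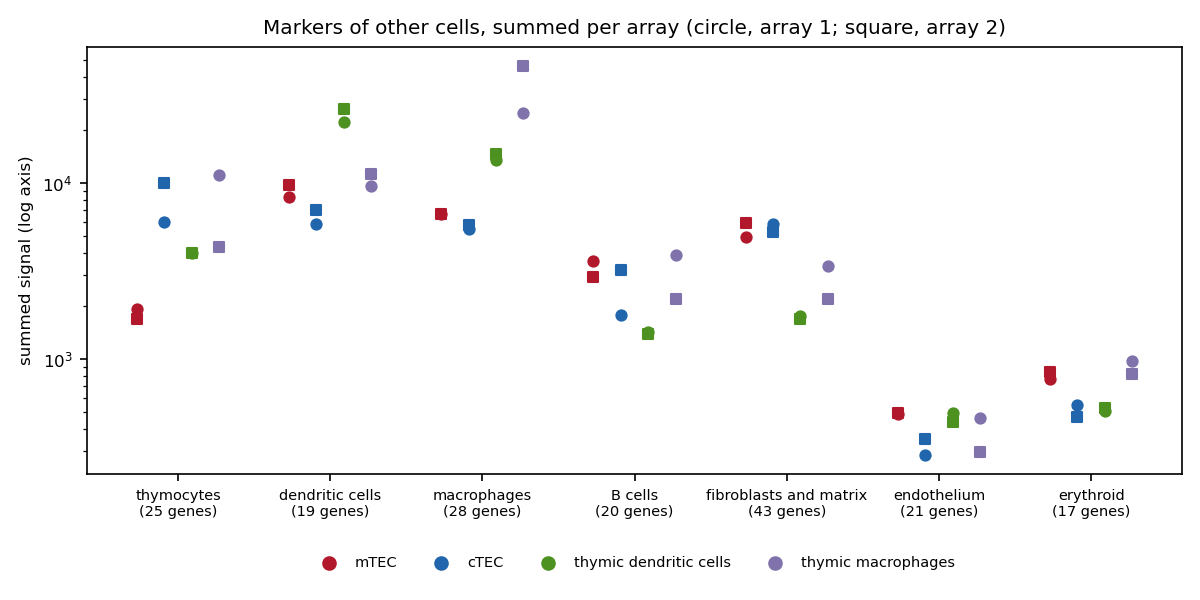
Summed signals (vertical log axis) of 7 marker lists are shown for each array of mTEC, cTEC, thymic dendritic cells and thymic macrophages, with circles for arrays numbered 1 and squares for arrays numbered 2. The thymocyte sums are lower on both mTEC arrays (1903 and 1670) than on both cTEC arrays (5971 and 9982), and the dendritic cell and macrophage sums of both epithelia lie below those of the sorted dendritic cells and macrophages.

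The CD80-sorted mTEC share no array with the comparison and show the same genes in the fractions of mTEC. Both comparisons came from the same limma fit and share its filter and its estimate of the spread, so their calls are not fully independent. Across the 9319 probe sets, mean log2 signals of unfractionated mTEC correlated with those of CD80hi cells at a Pearson r of 0.966 and with those of CD80lo cells at 0.867. The cTEC correlated with CD80hi cells at 0.790 and with CD80lo cells at 0.896. These are descriptions across probe sets, which share arrays and are not independent. In wild-type CD80hi over CD80lo mTEC, 744 probe sets (7.98%) were higher and 442 (4.74%) lower, or 8.62% and 4.84% of genes. Of the 1038 probe sets higher in mTEC than cTEC, 558 were also higher in CD80hi cells, which is 53.8% of the 1038 and 75% of the 744, and 39 were lower. Of the 396 lower in mTEC, 110 were also lower in CD80hi cells, which is 27.8% of the 396 and 24.9% of the 442, and 1 was higher. Without mTEC array 1 or 2 these 110 became 61 or 51, and without cTEC array 1 or 2 they became 54 or 69.

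**Figure D5:**
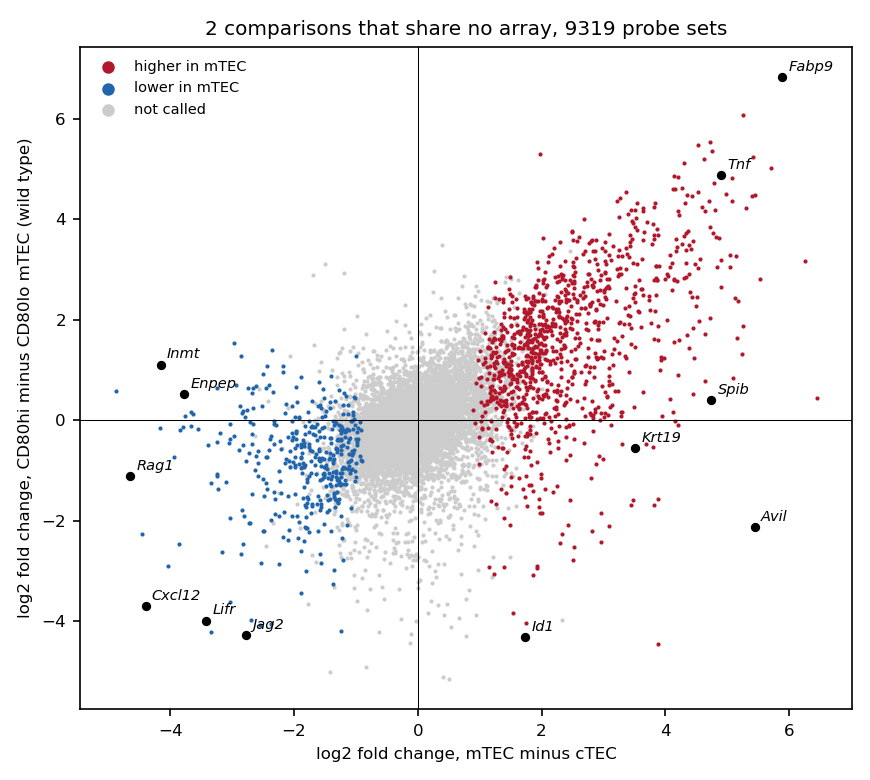
The log2 fold change of wild-type CD80hi minus CD80lo mTEC (vertical axis) is plotted against that of mTEC minus cTEC (horizontal axis) for 9319 probe sets, coloured by the call in mTEC versus cTEC. The 1038 probe sets higher in mTEC have a median of 1.50 on the vertical axis and the 396 lower in mTEC a median of -0.73, while Avil and Id1 lie at the lower right and Inmt and Enpep at the upper left.

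The cTEC genes thus included those lower in CD80hi than in CD80lo mTEC and those not called between these fractions. Cxcl12 gave 14.5 and 16.6 in CD80hi and 224 and 295 in CD80lo mTEC. Lifr gave 36.1 and 55.2 in CD80hi and 712 and 852 in CD80lo mTEC. Jag2 gave 3.4 and 2.3 in CD80hi and 131 and 154 in CD80lo mTEC, close to its cTEC signals. Fgfr2, Kcnk2, Hey1, Pax1 and Ackr4 were likewise lower in CD80hi than in CD80lo mTEC, with log2 fold changes from -2.89 to -1.79. The second kind included Enpep, at 52.0 and 53.4 in CD80hi and 30.8 and 40.5 in CD80lo mTEC, and Inmt, at 45.9 and 49.4 in CD80hi and 12.5 and 29.2 in CD80lo mTEC. Endou, Ly75 and Cd83 also were not called between the CD80 fractions. Ly75 and Cd83 were not absent from CD80lo mTEC, at 180 and 259 for Ly75 and 299 and 172 for Cd83. For Enpep and Inmt every array of either mTEC fraction lay far below both cTEC arrays.

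Some genes higher in mTEC than cTEC were not called higher in CD80hi than in CD80lo mTEC. Avil gave 128 and 109 in CD80hi and 520 and 548 in CD80lo mTEC (-2.13 ± 0.48), and Id1 gave 27.3 and 23.9 in CD80hi and 555 and 650 in CD80lo mTEC (-4.32 ± 0.38). Spib gave 705 and 648 in CD80hi and 532 and 493 in CD80lo mTEC, and was not called between them, nor were Epcam and Krt19. Nrep was not called either, although it gave 804 and 1103.5 in CD80hi and 383 and 365 in CD80lo mTEC. In Aire-knockout over wild-type CD80hi mTEC, 16 probe sets (0.172%) were higher and 268 (2.88%) lower, or 0.188% and 3.01% of genes. Of the 1038 probe sets higher in mTEC than cTEC, 222 were lower in knockout cells, which is 21.4% of the 1038 and 82.8% of the 268. The Aire probe set itself gave 1589 and 1385 in knockout and 1829 and 1704 in wild-type CD80hi cells, and its place relative to the deleted part is not given in the sources used here, so it checks nothing about the genotype.

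Genes higher in mTEC than cTEC included ones lower in Aire-knockout cells and ones not called there. Csn1s1 gave 1.9 and 1.1 in knockout and 185 and 202 in wild-type CD80hi cells, whereas Sprr1a gave 1431 and 1410 in knockout and 1369 and 1509 in wild-type cells. Of the 31 intestine and stomach genes 10 were lower in knockout cells, of the 23 mammary, salivary and lacrimal genes 18, and of the 20 medullary genes 0, beside 3.01% of all tested genes, a share at which few or none of 20 genes would be called. Chgb, Krt19, Acta1, Rbp4 and Eln were higher in mTEC than cTEC and lower in knockout cells, yet were not called between the CD80 fractions. Chgb, for example, gave 20.1 and 19.3 in knockout and 175 and 254 in wild-type CD80hi cells, with 163 and 238 in wild-type CD80lo cells.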

How the data were processed

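The members, gene lists, tests and the rule for named genes were chosen with earlier results of these data known. The deposited table gives 1 linear signal intensity per probe set and array for 12488 probe sets, per its columns, and each array has the same 2%-trimmed mean of 100.1. Which software the authors used is not given in the sources used here. No replicate pair was identical. The 66 control probe sets and 3103 others not above 17.3, the 40th percentile, on at least 2 of 16 arrays were left out. After adding 4.8, the 20th percentile, log2 values of all 16 arrays entered 1 limma fit (3.58.1, R 4.3.3, with data.table at 1.17.8) without a block, with lmFit and a trended eBayes (residual degrees of freedom 8, prior 5.97). All tests were 2-sided, with Benjamini-Hochberg adjustment over 9319 probe sets, and the fit was checked on simulated data. Gene names came from the platform annotation, updated through the GRCm38.p6 gene table. Of all probe sets 10833 had 1 symbol (10817 updated, 16 kept), 396 several and 1193 none. The 36 lists held 1117 genes, 752 of them tested and 106 in several lists.

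Named genes were the 12 highest and 12 lowest called genes with 1 symbol other than clone names, all measured members of the medullary and cortical lists, and from each further list the 4 members of smallest p, 159 in all, of which 23 rest on shared probes. Defining markers of other cells were picked after values were seen. Unfractionated arrays of the same number shared deviations from their group means (Pearson r 0.279 to 0.526 in all 6 pairs of groups), so the numbers pair these arrays, as inferred from the data and not the labels. Figures and promoter searches used Python 3.11.15. Alternatives were quantile normalisation, constants of 1 and 17.3, no filter and one of 50, no trend, only 8 or 4 arrays, array weights, the replicate block, averaging the probe sets of a gene and leaving out each array. Chosen after seeing the data were leaving out probe sets of 1000 or more and the count without thymocyte genes.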

Additional observations from a re-analysis of the deposited data

How the results depend on the processing

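The 1038 probe sets higher in mTEC became 694 to 749 without any 1 of the 4 arrays compared and 822 to 1172 under the other settings. All 1434 calls became 860 to 946 without 1 array, and the 396 lower in mTEC became 166 to 200. Fitting only the 8 unfractionated arrays gave 228 lower, with 4 residual degrees of freedom in place of 8. The shared 110 lower in mTEC and in CD80hi cells became 51 to 69 without 1 array, 245 with array weights and 170 with the replicate block. Array weights gave 2593 calls between the CD80 fractions. A constant of 1 gave 180 calls in the knockout comparison and 141 shared by genes higher in mTEC and lower in knockout cells. Quantile normalisation shifted the median of all probe sets by -0.107 and gave 929 higher and 474 lower. With the replicate number as a block, which pairs the arrays, 1763 probe sets were called (1172 higher and 591 lower), including 1036 of the 1038 and all 396, and with 8 arrays 1727. Of 132 named genes called, 107 kept their call in every setting that tested them and 25 lost it in some. The filter of 50 and the limit of 1000 left some of them untested. Krt8 ranged from -0.44 to 0.23 and Rps18 from -0.80 to 0.16 without 1 array, positive without cTEC array 2 and uncalled each time. Without probe sets at 1000 or more, 1235 were called. Where no cause is named, the cause was not tested. Signal over background limits dim genes.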

Other observations

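Some genes high in cTEC were also high on 1 of the 2 thymic macrophage arrays. Endou gave 823 on macrophage array 1 and 118 on array 2, Inmt 316 and 65.4, Cxcl12 366 and 87.6, Pax1 361 and 91.8, and Enpep 171 and 25.9. The keratins of the cortical list did likewise, Krt8 at 1213 and 172 and Krt18 at 733 and 46.4. The thymocyte sum was 10990 on macrophage array 1 and 4286 on array 2. Which cells gave these signals was not tested. The macrophage genes summed to 25000 and 45710, the other way round.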
